A study of Mus musculus with 8 samples.

Results

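Tryptases and carboxypeptidase A3 are granule proteases of mast cells (MCs), and 5 genes that encode them were followed here in RNA sequencing data of cultured murine peritoneal MCs (PMCs). The members are Tpsab1, Tpsb2, Tpsg1, Prss34 and Cpa3, taken by their gene names from a table of 55359 genes, together with their 14 transcripts among 142375 in the transcript table. The 8 libraries comprised 1 of PMC-303, 1 of PMC-306 and 6 of primary WT PMCs, of which 3 were female and 3 male. All cells derived from wild-type mice of the mixed strain C57BL/6x129/Sv and were untreated, and the primary cultures are labelled as biological replicates. Per the study, PMC-303 and PMC-306 carry chromosome changes, and PMC-306 has a male karyotype. These changes include a translocation between chromosomes Y and 17 in part of the PMC-306 karyotypes, and the tryptase genes lie on chromosome 17. The part of these changes in the levels below was not tested. PMC-303 and PMC-306 are lines that arose spontaneously from PMC cultures, and each is represented by 1 library. Per the study's methods, they were kept with less serum and less stem cell factor (SCF) than the primary cultures. In these libraries, medium and transformation therefore cannot be told apart. By RT-qPCR, the study found Cpa3 and Tpsab1 of PMC-306 not influenced by more serum and SCF. It reports no such comparison of media for Tpsb2, Tpsg1 or PMC-303. Against primary cultures, its RT-qPCR found Cpa3 reduced but detectable in PMC-306, and Tpsab1 undetected. Western blots of the study showed no tryptase protein in this line.

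Mast cell tryptases are trypsin-like serine proteases that are stored in secretory granules as tetramers bound to heparin and released upon degranulation. Carboxypeptidase A3 is a metalloprotease that removes amino acids from the carboxyl end of peptides and is stored with chymase on the same proteoglycan. Both are typical of connective tissue MCs, to which peritoneal MCs belong. Tpsb2 encodes the tryptase mMCP-6, Tpsab1 the tryptase mMCP-7, Tpsg1 a tryptase that carries a membrane anchor, and Prss34 the protease mMCP-11, which is known from basophils.

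Estimated counts per library summed to between 15918758 and 24180226. They are given as CPM, which relates a count to its library size after scaling with the trimmed mean of M values, and 3 counts, the limit that a count of 0 allows, corresponded to between 0.1235 and 0.1865 CPM; this limit and the intervals below cover counting error only. The 8 MC marker genes, among them Kit, Fcer1a and Il1rl1, were detected in all libraries, with a summed level of 26065 to 37528 CPM in primary WT PMCs, 21127 CPM for PMC-303 and 18093 CPM for PMC-306. In the lines 4 of these 8 (Kit, Fcer1a, Il1rl1 and Anpep) were lower by the test used below, which called 15.5% of all genes tested lower. Markers of B cells, T cells, eosinophils and mesothelium stayed under 1 CPM in each library. Macrophage markers summed to 7.54 to 68.8 CPM in primary cultures, 8.93 CPM for PMC-303 and 452 CPM for PMC-306, of which 426 CPM came from Adgre1, whereas C1qb had no count in any library and Csf1r was at most 0.230 CPM. Of this list 4 genes were tested, with 1 higher in the lines and 0 lower, beside 18.3% higher of all genes. The higher gene was Icam2 (adjusted p = 0.0193 by limma). It had at most 1.10 CPM in primary cultures, 1.77 CPM for PMC-303 and 10.6 CPM for PMC-306. Cd68 had 1.48 to 17.8 CPM in primary cultures, 4.73 CPM for PMC-303 and 13.9 CPM for PMC-306. Lyz2 went the other way, with at least 1.18 CPM in primary cultures, 0.247 CPM for PMC-303 and 1.13 CPM for PMC-306. It was not called (adjusted p = 0.0955 by limma). Basophil markers summed to 281 to 581 CPM in primary cultures, 270 CPM for PMC-303 and 293 CPM for PMC-306. Nearly all of this came from Cd200r3, with 277 to 575 CPM in primary cultures, 266 CPM for PMC-303 and 291 CPM for PMC-306. Mcpt8, Ccr3 and Itga2 were at most 3.78, 2.45 and 0.971 CPM in any library. All 4 basophil markers were tested and 0 called. The part of cells other than MCs in the levels below was not tested. In such bulk samples, fewer cells with a transcript and less transcript per cell cannot be told apart.

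Tpsb2 was the main tryptase of primary WT PMCs and the member that differed most between lines and primary cultures. In TPM, the deposited unit that accounts for transcript length, it ranked between the 9th and the 26th gene of a primary library, the 491st of PMC-303 and the 4171st of PMC-306. Its level was 2857 CPM in the lowest primary culture, 5626 CPM as the median and 10441 CPM in the highest, with a mean of 6309 ± 3242 CPM (SD, n = 6). PMC-303 had 177 CPM and PMC-306 had 20.9 CPM, from 4304 and 425 counts. Both lines lay clearly below all primary cultures, PMC-303 by 16.1-fold and PMC-306 by 137-fold under the lowest of them. Relative to the primary mean the level was 35.6-fold lower in PMC-303 (95% Poisson interval of the line's count 34.6 to 36.7) and 302-fold lower in PMC-306 (275 to 333). Each line is 1 library, so that these folds lack a replicate, and they share the same 6 primary cultures.

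Tested together, the lines differed from the primary cultures in Tpsb2 by a log2 difference of -6.52 (SE 0.78, adjusted p = 0.000511, limma on log2(CPM + 0.1) with Benjamini-Hochberg adjustment). The size of this difference depended on the line, with -8.06 without PMC-303 and -4.98 without PMC-306, and both were called. Of 14529 genes tested, 15.5% were called lower and 18.3% higher in the lines at an adjusted p under 0.05. Among the 5 members, 4 passed the filter on low counts, and 3 of them (Tpsb2, Tpsg1 and Tpsab1) were called lower and 0 higher. Both lines lay below every primary culture in CPM for 20.4% of 13304 genes with at least 1 CPM, and for Tpsb2 and Tpsg1 among the members. In PMC-303, 3.16% of genes were at least 5-fold under the primary mean, and Tpsb2 and Tpsg1 were among them. In PMC-306 this share was 3.83%, and it included Tpsb2, Tpsg1 and Tpsab1.

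**Figure D1:**
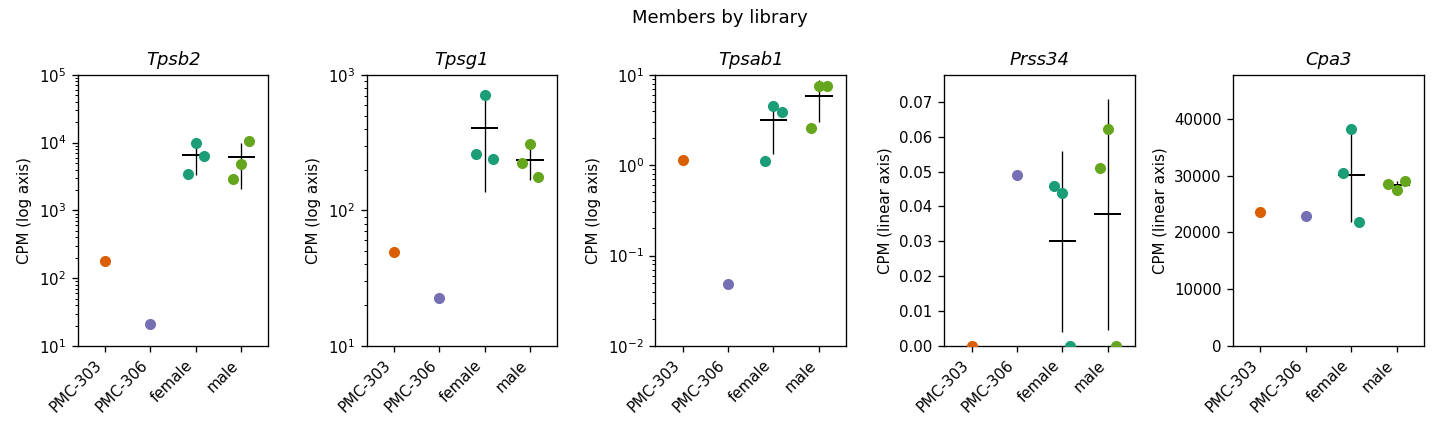
Level of each member in CPM by library, on a log axis for Tpsb2, Tpsg1 and Tpsab1 and on a linear axis for Prss34 and Cpa3. Points are libraries, horizontal bars the mean and vertical bars the SD of 3 female or 3 male primary cultures. Tpsb2 fell from 2857 to 10441 CPM in primary cultures to 177 and 20.9 CPM in the lines, whereas Cpa3 of both lines lay within the range of the primary cultures.

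Tpsg1 lies directly next to Tpsb2 and fell as well, but by less. It had 176 CPM in the lowest primary culture, a median of 249 CPM and 709 CPM in the highest, against 49.7 CPM for PMC-303 and 22.8 CPM for PMC-306. Thus, the lines did not overlap with the primary cultures, although female culture 2 stood above the other primary cultures, which reached 310 CPM at most. The level was 6.43-fold lower than the primary mean of 320 ± 196 CPM (SD, n = 6) in PMC-303 (95% Poisson interval 6.08 to 6.81) and 14.03-fold lower in PMC-306 (12.8 to 15.4). The log2 difference of both lines was -3.08 (SE 0.49, adjusted p = 0.00204 by limma). Without female culture 2 the fall was still called.

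As Tpsb2 fell more than Tpsg1, the composition of the tryptase RNA differed. Of the counts of Tpsb2, Tpsg1 and Tpsab1 together, Tpsb2 made up between 92.6 and 98.3% in primary WT PMCs, with a median of 93.5%. This share was 77.7% in PMC-303 (95% Wilson interval 76.6 to 78.8%, 5540 tryptase counts) and 47.8% in PMC-306 (44.5 to 51.0%, 890 tryptase counts). Hence Tpsg1 exceeded Tpsb2 in no primary culture, where it made up 1.65 to 7.29%, but reached 21.8% in PMC-303 and 52.1% in PMC-306. Per length the order was the same, with 30.0 TPM of Tpsg1 and 24.3 TPM of Tpsb2 in PMC-306 and 61.1 TPM and 198 TPM in PMC-303. In PMC-306 the interval of the Tpsb2 share includes equal counts of both genes. Set against Cpa3 of the same library, Tpsb2 was at 10.02 to 36.1% of the Cpa3 CPM in primary cultures, 0.751% in PMC-303 and 0.0914% in PMC-306. Over the 8 libraries, an exact two-sided permutation test gave p = 0.0714 for the share of Tpsb2 and likewise for the ratios of Tpsg1 to Tpsb2 and of Tpsb2 to Cpa3. This is the smallest p that the test in the form used here allows for 2 against 6 libraries (28 arrangements). These 3 tests were chosen after the values were seen.

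**Figure D2:**
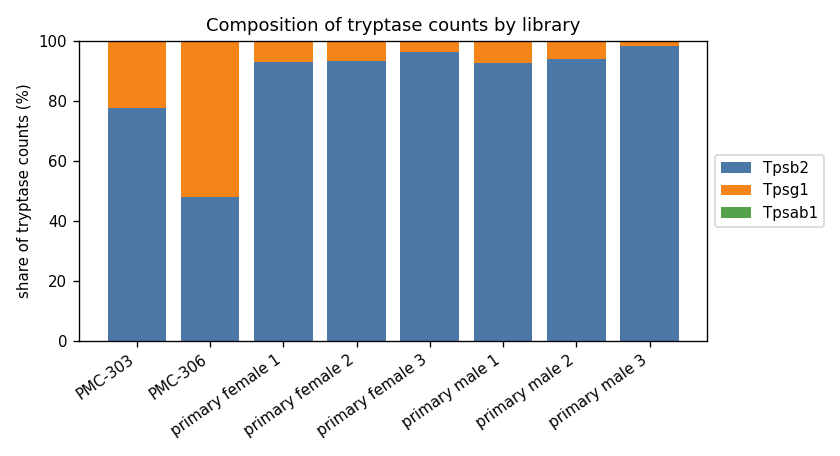
Share of Tpsb2, Tpsg1 and Tpsab1 in their summed estimated counts, in percent, with 1 stacked bar per library. Tpsb2 makes up at least 92.6% in each primary culture, 77.7% in PMC-303 and 47.8% in PMC-306, where Tpsg1 holds 52.1%.

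The tryptase genes lie on chromosome 17 (GRCm39, GENCODE release M39), Tpsab1 at chr17:25562212-25564541 on the minus strand, Tpsb2 at chr17:25585170-25588079 and Tpsg1 at chr17:25588235-25593417, both on the plus strand. Tpsab1 and Tpsb2 are 20628 bases apart, whereas only 155 bases separate the outer gene bounds of Tpsb2 and Tpsg1. The main Tpsb2 transcript, Tpsb2-202, ends earlier, at base 25587087. Prss34 (chr17:25517368-25519142, plus strand) lies 43.1 kb from Tpsab1. Cacna1h, a calcium channel gene on the other strand that overlaps the last 159 bases of Tpsg1, was at most 0.124 CPM in any library. The kit marked the strand of the RNA, but whether counting used it is not given in the sources used here.

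**Figure D3:**
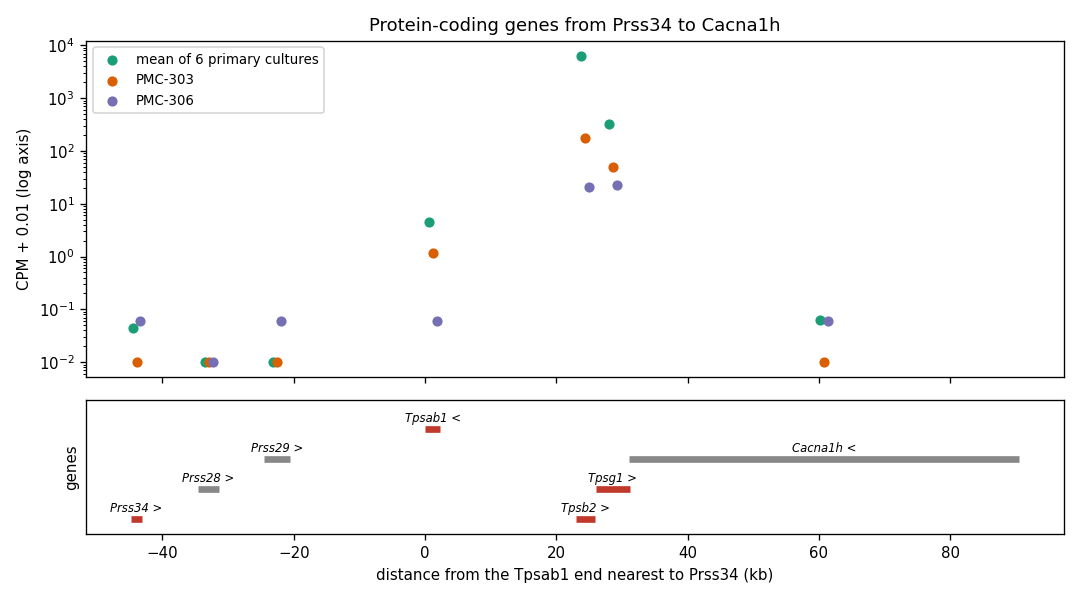
Protein-coding genes from Prss34 to Cacna1h by distance in kb (lower panel, members in red, arrowheads give the strand) and their level as CPM + 0.01 on a log axis (upper panel) as the mean of 6 primary cultures and in each line. Points of the same gene are set slightly apart. Tpsb2 is at 6309 CPM on average in primary cultures, 177 CPM for PMC-303 and 20.9 CPM for PMC-306, whereas Prss34, Prss28, Prss29 and Cacna1h lie under 1 CPM throughout.

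Of the 5 members, 3 matched an entry in the RefSeq promoter table (Cpa3, Prss34 and Tpsg1), whose sequences were placed on GRCm39 by exact match. The stretch between Tpsb2 and Tpsg1 (chr17:25588080-25588234, plus strand) and the bases before Cpa3 (chr3:20296363-20296595, minus strand) are shown because Tpsg1 fell in the lines and Cpa3 was not called. Capitals mark GATAA on either strand, which GATA factors of MCs can bind, and CANNTG, the E-box letters that MITF and TAL1 can bind.
Tpsg1: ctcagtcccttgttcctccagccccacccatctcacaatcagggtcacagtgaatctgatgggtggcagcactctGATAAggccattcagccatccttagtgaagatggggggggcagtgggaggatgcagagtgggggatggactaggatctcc
Cpa3: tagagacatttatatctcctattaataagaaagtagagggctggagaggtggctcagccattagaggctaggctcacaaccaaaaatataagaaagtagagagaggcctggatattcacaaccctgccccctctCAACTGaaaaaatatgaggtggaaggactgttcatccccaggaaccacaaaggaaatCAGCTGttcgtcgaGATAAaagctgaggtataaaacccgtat
The table gives 2 windows of 250 bases for Tpsg1. The one that holds the stretch shown had 1 GATAA, which began 92 bases before the RefSeq start, and no CANNTG. The other (chr17:25589277-25589526, plus strand), all of which is exonic in release M39, had no GATAA and 3 CANNTG. Cpa3 held 1 GATAA, 45 bases before its start, and 2 CANNTG at 116 and 59 bases, none of which overlapped with GATAA. Of 32536 promoter windows of this length, 22.5% held GATAA and 66.2% held CANNTG on either strand. These matches describe letters only.

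Tpsg1 counts were assigned mostly to transcripts that begin close behind the outer gene bound of Tpsb2. The transcripts Tpsg1-202 and Tpsg1-203 start there (at base 25588247 and 25588263 of chromosome 17), and Tpsg1-201 and Tpsg1-205 start further downstream at base 25589159. The downstream start held between 7.92 and 14.3% of Tpsg1 counts in primary WT PMCs. In PMC-303 it held 6.44% (95% Wilson interval 5.20 to 7.99%) and in PMC-306 6.00% (4.21 to 8.58%). The lines thus were below all primary values, but their intervals include the lowest of these. Downstream counts were assigned only to Tpsg1-201 in PMC-303 (77.8 counts) and only to Tpsg1-205 in PMC-306 (27.9 counts). Assignment among transcripts that share sequence is uncertain, and the intervals do not cover this.

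Tpsab1 was the rare tryptase of these cells. It had 1.10 CPM in the lowest primary culture, a median of 4.21 CPM and 7.52 CPM in the highest, from 24 to 142 counts. PMC-303 had 28 counts (1.15 CPM) and so did not leave the primary range, and PMC-306 had 1 count (0.0491 CPM), which was below all of them. Relative to the primary mean of 4.52 ± 2.58 CPM (SD, n = 6), this 1 count was 92.0-fold lower, with a wide 95% Poisson interval of 16.5 to 3633. In PMC-303 it was 3.92-fold lower (95% Poisson interval 2.71 to 5.90). Both lines together gave a log2 difference of -3.17 (SE 0.89, adjusted p = 0.0254 by limma). This call was lost without PMC-306, with a log2 difference of -1.63 (adjusted p = 0.222 by limma), while without PMC-303 it was -4.70 and called. It was also lost with limma-voom weights (adjusted p = 0.137) and against only the female (adjusted p = 0.149 by limma) or only the male cultures (adjusted p = 0.0593 by limma).

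The Tpsab1 counts were assigned to different transcripts in lines and primary cultures. The protein-coding transcript Tpsab1-202 has 5 exons, whereas the retained-intron transcript Tpsab1-201 skips exon 2 and runs through the introns behind exon 3 and exon 4. In primary WT PMCs, 51.6 to 75.9% of the Tpsab1 counts were assigned to Tpsab1-201, with a median of 58.7%. All 28 counts of PMC-303 and the 1 count of PMC-306 were assigned to Tpsab1-202. For PMC-303, 0 of 28 counts allows a share of Tpsab1-201 of up to 10.7%, which is below all primary cultures, while the 1 count of PMC-306 bears on no share. The counts of Tpsab1-202 alone were 11.6 to 57.1 in primary cultures, and 28 in PMC-303 lies within this range.

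**Figure D4:**
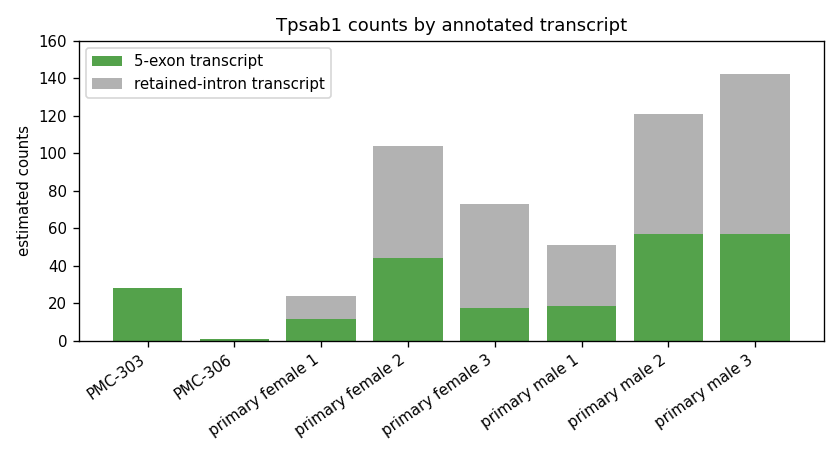
Estimated Tpsab1 counts per library, stacked by the 5-exon transcript Tpsab1-202 (green) and the retained-intron transcript Tpsab1-201 (grey). The primary cultures hold 24 to 142 counts with 51.6 to 75.9% in the retained-intron transcript, and the 28 counts of PMC-303 and 1 count of PMC-306 are all in the 5-exon transcript.

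The end of Tpsab1 exon 2, which Tpsab1-201 lacks, is shown beside the corresponding exon 3 of Tpsb2-202, which also has 166 bases. Both are 30 bases of GRCm39, with the last 18 exon bases followed by 12 intron bases, and capitals mark the first 2 bases of the intron.
Tpsab1 (chr17:25564012-25564041, minus strand): ggcacactgtgtgggaccATgagtctacct
Tpsb2 (chr17:25585882-25585911, plus strand): ggcacactgtgtgggaccGTgagtctccct
The intron begins with AT in Tpsab1 and with GT, the usual donor, in Tpsb2. The other 3 introns of Tpsab1-202 and the other 4 of Tpsb2-202 all begin with GT. GRCm39 is the genome of C57BL/6, a strain known to carry a splice site mutation in the mMCP-7 gene that some other strains lack. The alleles of the cultures at this site were not analysed here. Both genes are related, with 73.7% identical bases over 1136 aligned bases of Tpsab1-202 and Tpsb2-202, but they shared only 9 stretches of 31 bases, 0.389% of those in Tpsab1 transcripts. Tpsab1 was between 0.0324 and 0.157% of the Tpsb2 CPM in primary cultures, 0.651% in PMC-303 and 0.235% in PMC-306, and since counting may split reads between related genes, the few Tpsab1 counts are uncertain.

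Most Tpsb2 counts were assigned to the transcript Tpsb2-202, with 94.9 to 96.3% in primary cultures, 96.2% in PMC-303 and 96.8% in PMC-306. A further transcript of the deposited table that is not in release M39 (ENSMUST00000069616) held 1.95 to 3.21% in primary cultures and was listed at 0 in both lines. A count of 0 allows a share of up to 0.0697% in PMC-303 and 0.706% in PMC-306.

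Prss34 was not detectable beyond single counts. It had 0 or 1 count in each of the 8 libraries, which is under the limit of 3 counts, so that no fold is given and it did not enter the tests. The other 9 serine protease genes of this region of chromosome 17, such as Prss28 and Prss29 between Prss34 and Tpsab1, were all under 1 CPM in every library, and 4 of them had no count at all.

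In contrast to the tryptases, Cpa3 was among the most abundant transcripts in lines and primary cultures. In TPM it ranked 4th in PMC-303 and in PMC-306 and between the 4th and the 5th in primary WT PMCs. The gene lies at chr3:20269774-20296362 on the minus strand. Primary cultures had 21763 CPM at the lowest, a median of 28735 CPM and 38179 CPM at the highest, and PMC-303 with 23601 CPM and PMC-306 with 22835 CPM were within this range. Thus, the lines held 80.8 and 78.1% of the primary mean. Only female culture 3 lay below the lines, and the other primary cultures had at least 27539 CPM. The log2 difference of -0.31 (SE 0.33, adjusted p = 0.494 by limma) was smaller than its error. By RT-qPCR, the study instead found Cpa3 reduced in PMC-306 against primary cultures, and the reason for this disagreement was not tested. Of the Cpa3 counts, at least 99.98% were assigned to Cpa3-201 in each library.

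Other metallocarboxypeptidases were rare. Of 15, 11 were under 1 CPM in each library and 4 were tested. Of these, 1 was lower (Cpq, a secreted carboxypeptidase) and 0 higher, beside 15.5% lower and 18.3% higher of all genes. The median log2 difference was -0.90 beside -0.01 for all genes tested. It lies between Cpe (-2.08) and Cpb1 (0.29), which were not called and had at most 3.49 CPM in any library. Cpq had 0.105 to 3.16 CPM in primary cultures and no count in either line (adjusted p = 0.0152 by limma), a call that was absent with limma-voom weights. Cpd, which trims peptides in the secretory pathway, had 43.4 to 69.9 CPM in primary cultures, 136 CPM for PMC-303 and 58.3 CPM for PMC-306 (adjusted p = 0.0839 by limma). Cpb1, the neighbour of Cpa3, had 1.73 to 3.49 CPM in primary cultures and 2.72 and 3.09 CPM in PMC-303 and PMC-306.

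The list of genes for storage and processing of granule proteases also held the chymase genes Cma1 and Mcpt4, which encode such proteases themselves. Of this list 18 were tested, of which 2 were higher and 5 lower in the lines. This stands beside 18.3% higher and 15.5% lower of all genes. The median log2 difference of the list was -0.23. Ctsc, which encodes the dipeptidyl peptidase that activates many granule serine proteases, rose from 175 ± 101 CPM (SD, n = 6) to 564 CPM for PMC-303 and 992 CPM for PMC-306 (log2 difference 2.24, SE 0.43, adjusted p = 0.00505 by limma). Ctsd, encoding the lysosomal protease cathepsin D, fell from 4117 ± 746 CPM (SD, n = 6) to 1310 and 2449 CPM (adjusted p = 0.0106 by limma). Hs6st1, a sulfotransferase of heparan sulfate, fell as well, from 231 ± 28.4 CPM (SD, n = 6) to 163 and 90.0 CPM (adjusted p = 0.0104 by limma). Ndst2, needed for heparin sulfation, had a log2 difference of 0.04, Srgn, the core protein of the granule proteoglycan, of -0.22, and the chymase gene Cma1 of -0.36, none of which was called. Ctsb and Ctse were not called either. For Cma1, RT-qPCR of the study found a reduced level in PMC-306 against primary cultures. Named after their values were seen, Ext1 was the other higher gene, and Extl3, Xylt2 and the chymase gene Mcpt4 the other lower ones. Mcpt4 had 31.6 to 434 CPM in primary cultures, 1.85 CPM for PMC-303 and 0.0492 CPM for PMC-306 (adjusted p = 0.000997 by limma), but with limma-voom weights it alone of these 7 genes was not called (adjusted p = 0.162).

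Of the factors known to act on MC protease genes, 9 were tested, of which 3 were lower and 0 higher, beside the same shares of all genes (15.5% lower and 18.3% higher), with a median log2 difference of -0.32. The SCF receptor gene Kit fell from 3674 ± 201 CPM (SD, n = 6) to 1946 CPM for PMC-303 and 2055 CPM for PMC-306 (log2 difference -0.88, SE 0.12, adjusted p = 0.000886 by limma). Runx1 (log2 difference -0.73, adjusted p = 0.00958 by limma) and Zeb2 (-0.48, adjusted p = 0.0180 by limma) fell as well. Mitf, the MC master regulator, had a log2 difference of 0.16 and Gata2 of 0.13, and neither was called. Gata1 had 106 to 130 CPM in primary cultures, 143 CPM for PMC-303 and 58.7 CPM for PMC-306, and Tal1 had 313 to 376, 350 and 193 CPM. Meis2 had 0.351 to 19.1, 92.4 and 6.68 CPM. The part of these factors in the levels of the proteases was not tested.

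Among inhibitors of serine proteases and a receptor of tryptase, 3 were tested by limma and 0 were called, which was also so at an unadjusted p under 0.05 and with limma-voom weights. Serpinb1a, an inhibitor of neutrophil and MC serine proteases, had 1546 to 2664 CPM in primary cultures and 1757 and 1760 CPM in PMC-303 and PMC-306. Serpinb6a had 224 to 319, 253 and 298 CPM. F2rl1, the receptor PAR2 that tryptase can cleave, had no count in any library.

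**Figure D5:**
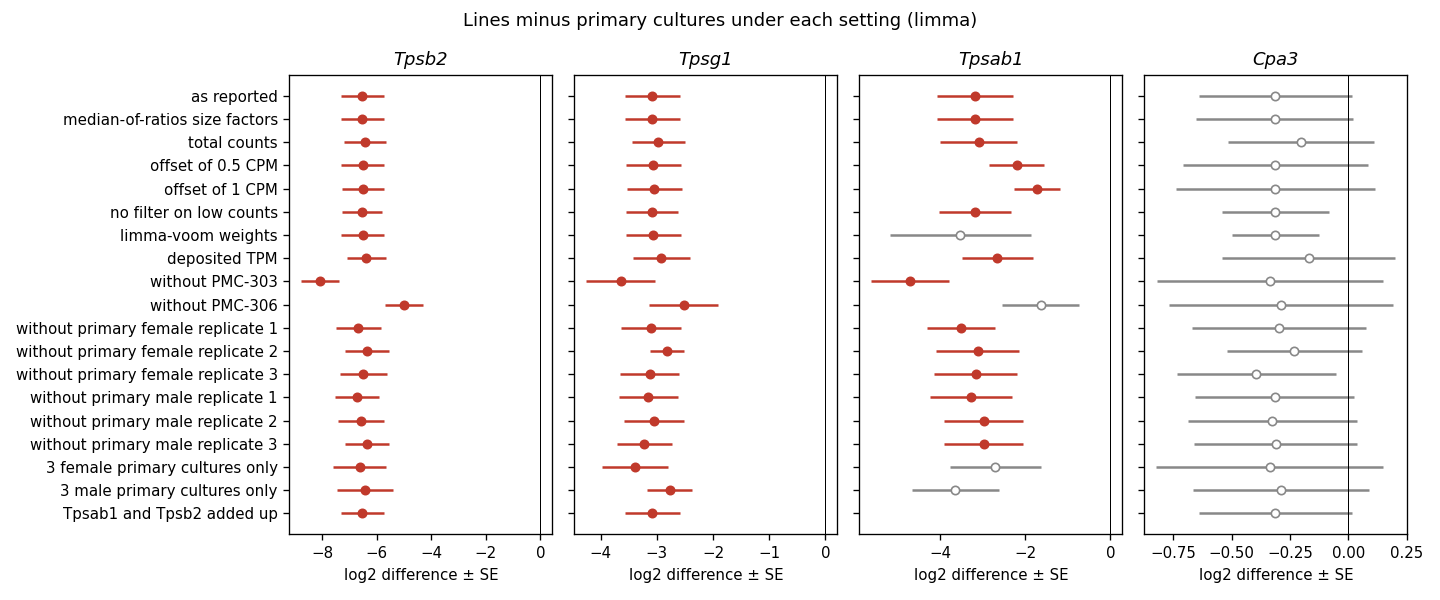
Log2 difference of both lines minus primary cultures for 4 members (points) with its SE (bars) under each setting, from limma. Filled red points have an adjusted p under 0.05, open grey points do not. Tpsb2 and Tpsg1 are called under each setting shown and Cpa3 under none, whereas the call of Tpsab1 is lost in 4 of them.

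Female and male primary cultures were compared to ask whether the sex of the mice moved the members. Tpsb2 had 3407, 9895 and 6451 CPM in female cultures 1 to 3 and 2857, 4801 and 10441 CPM in male cultures 1 to 3, so that the groups overlapped. Tpsg1 had 259, 709 and 240 CPM in female and 225, 310 and 176 CPM in male cultures. Tpsab1 had 1.10, 4.57 and 3.85 CPM in female and 2.61, 7.52 and 7.45 CPM in male cultures. Cpa3 had 30374, 38179 and 21763 CPM in female and 28515, 27539 and 28955 CPM in male cultures. None of the 4 members tested was called by limma (adjusted p = 1.00 for each), at an unadjusted p under 0.05 or with limma-voom weights. Of 13710 genes, 0.0438% were called between the sexes.

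Among the 6 primary cultures the tryptases varied more than Cpa3. The highest culture exceeded the lowest by 6.83-fold for Tpsab1, 4.04-fold for Tpsg1 and 3.65-fold for Tpsb2, but by 1.75-fold for Cpa3, although this order was not tested. Over the 6 cultures, 6 pairs of members were compared on log2(CPM + 0.1). Tpsg1 and Cpa3 had the highest Pearson's r of 0.679 (exact permutation p = 0.186, adjusted 0.558) with Spearman's rho of 0.314 (exact permutation p = 0.564, adjusted 0.963), and without 2 cultures far from the median of Tpsg1 r was 0.198. Tpsab1 and Tpsb2 had r of 0.660 (exact permutation p = 0.160, adjusted 0.558) and rho of 0.6 (exact permutation p = 0.242, adjusted 0.963), and without 2 cultures far from the median of Tpsab1 r was 0.891. The other 4 pairs had r between -0.061 and 0.297, and no pair passed the threshold.

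Searched over the same 6 cultures among 8575 genes with at least 10 CPM, the genes most alike to Tpsb2 were Gnai1, Arhgap45, Ostc, Ddc and Snapc4, with r of 0.992 to 0.978. For Tpsg1 they included Slc6a8, Cpsf3, Abi3 and Nif3l1 (0.982 to 0.979), for Tpsab1 they were Polrmt, Rap1b, Sptlc1, Trim23 and Cyfip1 (0.986 to 0.971) and for Cpa3 Pus1, Nol6, Polr2h, Eif2b2 and Camk1 (0.990 to 0.978). No other member was among them. With 6 points and this many genes such values of r are a description only. In the lines, Gnai1 had 61.1 CPM for PMC-303 and 23.7 CPM for PMC-306 against 29.9 to 66.2 CPM in primary cultures, and Slc6a8, a creatine transporter gene, had 86.2 and 54.6 CPM against 110 to 159 CPM.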

How the data were processed

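RNA of 8 cultures was compared, grouped by their labels. Per the study's methods, the authors prepared stranded total RNA libraries, trimmed reads with Trim Galore 0.6.7, aligned them to GRCm39 with STAR 2.7.9a and used Salmon 1.5.2 for quantification. Estimated counts without normalization and TPM were deposited by the authors. A spreadsheet program had rewritten 3.37% of gene and 3.22% of transcript count cells; each had 1 reading and was restored. Of the TPM cells 21.8% had lost their point, of which 9437 were placed with the counts. Since such columns are not readable as counts before restoration, limma 3.58.1 was chosen and run on the restored values. It used a trend on log2(CPM + 0.1) of genes with about 10 counts in enough libraries and 15 in total. It was checked on simulated data. Named genes are the members, members of fixed lists with at least 10 CPM (at most 8 per list) and the 5 most alike genes, of which 1 is not reported here. Members and lists were chosen with earlier results of these data known. No primary library repeated another (chi-square per degree of freedom at least 20.6). Python 3.11.15, scipy 1.17.1 and biopython 1.88 were used.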

Additional observations from a re-analysis of the deposited data

Results flagged for a closer look

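Among 28 measures, the highest or lowest of the 6 primary cultures was tested for standing far from the other 5 (Dixon's criterion, by which chance flags about 1 in 20), and 3 did so. Tpsg1 reached 709 CPM in female culture 2, and the next highest culture had 310 CPM. Ctsc was at 378 CPM in female culture 3 beside 158 CPM in the next, and Mitf in the same culture at 243 CPM beside 214 CPM.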

How the results depend on the processing

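The falls of Tpsb2 and Tpsg1 were called under all alternatives run. The call of Tpsab1 was lost with limma-voom weights (log2 difference -3.52, adjusted p = 0.137), against the 3 female (-2.70, adjusted p = 0.149) or the 3 male primary cultures (-3.64, adjusted p = 0.0593), and without PMC-306; the cause was not tested. With an added 0.5 or 1 CPM its log2 difference was -2.20 and -1.72, still called. Over the libraries left out in turn, the log2 difference ranged from -4.70 to -1.63 for Tpsab1, and the number of genes called from 3834 to 4656, beside 4920. Without PMC-303 or PMC-306 the lone line was assumed to vary like the other libraries. Against 3 female or 3 male cultures only, with fewer samples, 2160 and 3033 genes were called. Total counts and TPM moved the median of all genes by 0.11 and 0.14 (log2), and 67.2 and 70.8% of calls were then higher, beside 54.2%. In the comparison of sexes, Tpsb2 turned sign without a culture (from -0.24 to 0.70 over the cultures left out), as did Cpa3 (from -0.14 to 0.27), without a call. The share of Tpsb2 in PMC-303 was 76.1% by TPM, an alternative added after the data were seen. Same-numbered female and male cultures did not deviate together in each pair (r of 0.40, -0.22 and 0.28). With the replicate block 5 genes were called beside 6 without the block, and no member was called. The block cannot change a log2 difference in this balanced design, such as 0.20 for Tpsb2. It lowered the SE from 0.63 to 0.21 for Tpsab1, 0.44 to 0.20 for Tpsg1 and 0.57 to 0.38 for Tpsb2. For Cpa3 the SE rose from 0.42 to 0.52. edgeR and DESeq2 were not run, a choice made because the columns as deposited held rewritten cells. The restored counts could be used, and limma-voom on them took the place of both. With 1 library per line, depth limits Tpsab1 in PMC-306 and Prss34 most.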
